A study of Homo sapiens with 4 samples.

Results

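The miR-125 rows are the mature microRNAs (miRNAs) of miR-125a and miR-125b, taken by name from a table of small RNA counts of H661 cells, with both arms of each hairpin and the copy-specific arms. The rule found 5 of the 826 listed rows, 2 from miR-125a and 3 from miR-125b: hsa-miR-125b-5p, hsa-miR-125a-5p, hsa-miR-125b-2-3p, hsa-miR-125b-1-3p and hsa-miR-125a-3p. All 5 passed the filter on low counts. H661 is a human cell line established from a large cell carcinoma of the lung. One group of 2 libraries came from cells given the solvent dimethyl sulfoxide (DMSO), and the other group of 2 from cells given 2.5 µM entinostat for 8 h, both grown in RPMI1640 with fetal bovine serum. Entinostat inhibits class I histone deacetylases, enzymes that remove acetyl groups from histones. Whether replicates were separate cultures is not labelled, so the p-values reflect library-to-library spread, which may be technical only.

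A miRNA hairpin is cut into a duplex of a 5p and a 3p arm, and usually 1 arm, the guide, is kept in Argonaute while the other is degraded. The guide finds messenger RNAs mainly through its seed, bases 2 to 8. The miR-125 family is the vertebrate relative of lin-4, the first miRNA described in the worm, and its targets include LIN28, a regulator of developmental timing, and ERBB2 and ERBB3, growth factor receptors. In breast cancer cells, entinostat has been tied to higher miR-125a, miR-125b and miR-205 and lower ERBB2 and ERBB3, which is the background to following these rows here.

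The mature sequences are shown first, because the guide arms share a seed and the 3p arms tell the gene copies apart. They are RefSeq's, on GRCh38.p14, written 5′ to 3′ with the seed in capitals, and all 5 members had an entry.
hsa-miR-125b-5p: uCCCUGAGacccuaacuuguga
hsa-miR-125a-5p: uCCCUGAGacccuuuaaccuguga
hsa-miR-125b-2-3p: uCACAAGUcaggcucuugggac
hsa-miR-125b-1-3p: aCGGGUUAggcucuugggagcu
hsa-miR-125a-3p: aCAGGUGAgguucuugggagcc
The guide arms miR-125b-5p, of 22 bases, and miR-125a-5p, of 24 bases, have their first 13 bases and their last 5 bases in common. Among 2370 mature names with a single sequence in that table, 1 further name, hsa-miR-4319, has this seed, and it is not among the listed rows of the count table. Each 3p arm has a seed that no other name in the table has. The arms miR-125b-2-3p and miR-125b-1-3p share a run of 12 bases, which starts at base 10 of the former and at base 8, the last of the seed, of the latter, and miR-125b-1-3p and miR-125a-3p a run of 10.

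The arms sit in their hairpins as follows, with both mature arms in capitals, to show which arm lies where and how short the loop is.
MIR125A: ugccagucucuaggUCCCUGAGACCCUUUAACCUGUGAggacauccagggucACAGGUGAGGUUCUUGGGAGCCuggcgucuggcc
MIR125B1: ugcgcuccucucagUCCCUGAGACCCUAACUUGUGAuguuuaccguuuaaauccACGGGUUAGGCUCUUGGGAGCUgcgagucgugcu
In MIR125A the arms are 14 bases apart, and in MIR125B1 they are 18 bases apart. By the GENCODE release 29 annotation of GRCh38, MIR125A lies on chromosome 19 (51693254 to 51693339, plus strand) in an intron of SPACA6 and opposite an exon of the antisense transcript SPACA6P-AS. MIR125B1 lies on chromosome 11 (122099757 to 122099844, minus strand) within an intron of the long non-coding transcript MIR100HG. MIR125B2 lies on chromosome 21 (16590237 to 16590325, plus strand) within an intron of another long non-coding transcript, MIR99AHG. Because MIR125B1 and MIR125B2 give the same 5p sequence, the row miR-125b-5p cannot be divided between the copies, while their 3p rows can.

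The 4 libraries held 547875 to 938559 miRNA counts. A count of 0, if it means that no read was seen, allowed up to 3.20 to 5.48 CPM (counts per 1e+06 counts of a library). Levels of the members and of other named miRNAs are CPM over the tested rows, with TMM scaling (trimmed mean of M-values), a correction for library composition, while the marker levels in this paragraph are CPM over all counts of a library, without TMM scaling. Small RNA reads are counted per molecule, so no length correction applies, but adapter ligation can recover sequences unequally, and a difference in level between 2 miRNAs is therefore a difference in counts. Replicates of a treatment differed by more than counting noise, with a chi-square per degree of freedom, over rows with a summed count of 10 or more, of 5.93 in the DMSO pair and 7.51 in the entinostat pair. For contrast with other cell types, the table lists no miR-451a, miR-144, miR-142 or miR-223 of blood, miR-122 of liver had at most 5.33 CPM, and the 2 muscle rows summed to at most 12.8 CPM. The 2 blood rows that are listed, almost wholly miR-486, summed to 191.7 to 243.0 CPM with overlapping groups. The 4 listed rows of the epithelial markers summed to 41.0 to 56.5 CPM with DMSO and 59.8 to 76.7 CPM with entinostat. Of the 2 tested rows among them, miR-200c-3p had a log2 fold change above 0 (0.57) and miR-203a-3p below 0 (-0.46). Marker rows of mesenchyme (7 rows, led by miR-143) summed to 72.5 to 94.4 CPM with DMSO and 115.0 to 119.5 CPM with entinostat. Neuronal rows (3 rows, almost wholly miR-9) summed to 1112 to 1213 CPM with DMSO and 1303 to 1347 CPM with entinostat. No row of these lists was called, but the summed levels of these last 3 lists were higher in the entinostat libraries without overlap. Of single tested miRNAs, 20.7% were higher in that way. The part of these lists in the results below was not tested.

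The guide arms of the family were among the most abundant rows of these libraries, in places 4 and 13 by mean level. They held nearly all counts of the family. All 5 rows together made up 5.78% (exact Clopper-Pearson 95% interval 5.74 to 5.83%) and 5.38% (5.32 to 5.43%) of the counts in DMSO replicates 1 and 2. With entinostat they made up 5.08% (5.03 to 5.14%) and 5.28% (5.23 to 5.33%) in replicates 1 and 2. These intervals cover counting error only. Both entinostat libraries lay below both DMSO libraries, at 5.18 ± 0.136% against 5.58 ± 0.289% (SD, n = 2), but the two-sided exact permutation test over libraries gave p = 0.333, the smallest that 2 against 2 allows. The 3p arms alone made up 0.224 to 0.237% of the counts, with overlapping groups.

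The most abundant member was miR-125b-5p, the guide that 2 gene copies produce. It reached 39181 and 36440 CPM in DMSO replicates 1 and 2, and 35074 and 36958 CPM in entinostat replicates 1 and 2. The entinostat values lay on both sides of the lower DMSO value, so the groups overlapped. It held place 4 in the order of levels in every library. The miRNAs next to it in the order, miR-30c-5p above at 46285 CPM and miR-30a-5p below at 31251 CPM over the 4 libraries, did not overlap it in range. Next in the family came miR-125a-5p at 16675 and 14968 CPM in the DMSO libraries, against 13877 and 13081 CPM after entinostat, where the groups did not overlap. Its place ran from 11 to 14 in the separate libraries. Both neighbours, miR-24-3p (14897 CPM) and miR-100-5p (13165 CPM), overlapped it in range and so were not told apart from it.

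**Figure D1:**
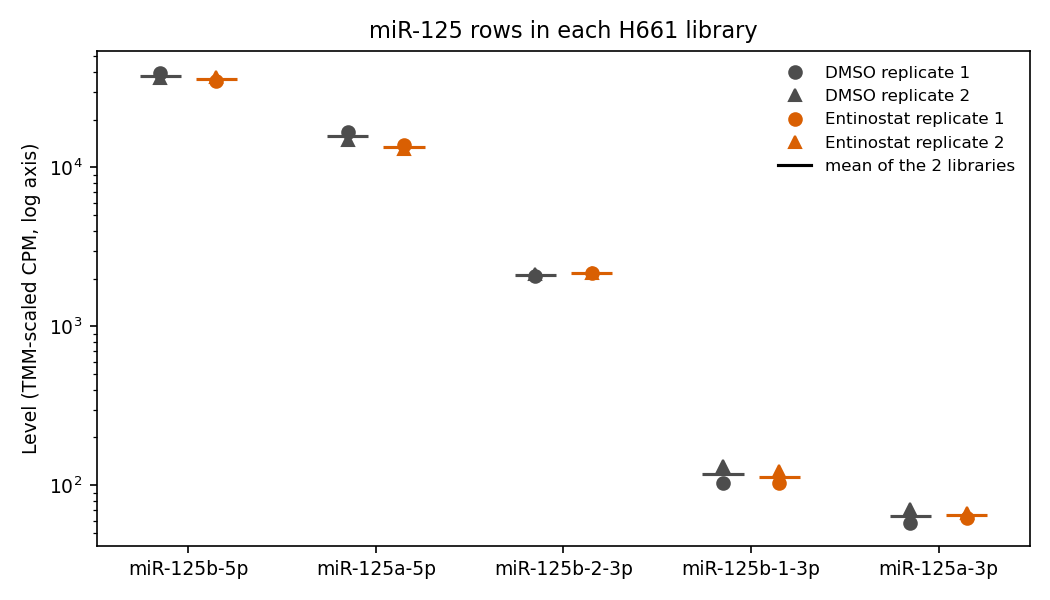
Levels of the 5 miR-125 rows in TMM-scaled CPM (log axis) in each of the 4 libraries, with DMSO in grey, entinostat in orange, circles for replicate 1, triangles for replicate 2 and a bar at the mean of each group. The rows span 57.8 to 39181 CPM, and at this scale the groups lie nearly on top of each other for each row.

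The 3p arms were much rarer and differed widely from one another. The chromosome 21 arm miR-125b-2-3p stood at 2087 and 2152 CPM with DMSO and at 2159 CPM in both entinostat libraries. These entinostat values were narrowly above both DMSO values. The chromosome 11 arm miR-125b-1-3p stood at 103.8 and 131.8 CPM in DMSO libraries and at 103.1 and 123.9 CPM after entinostat. Replicate 1 was the lower library in both groups, and the groups overlapped. Least abundant was miR-125a-3p, at 57.8 and 71.3 CPM in DMSO libraries and 62.6 and 67.2 CPM after entinostat, from only 34 to 54 counts per library. By mean level the 3p arms were in places 62, 227 and 270, and each overlapped both of its neighbours in the order.

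None of the 5 miR-125 rows was called different between entinostat and DMSO. Calls needed a Benjamini-Hochberg adjusted p under 0.05 in the edgeR quasi-likelihood test, which called 0 of the 401 tested miRNAs, a background of 0%. At an unadjusted p under 0.05 that test gave 27 miRNAs, and DESeq2 called 0 with 11. Without entinostat replicate 1 the edgeR test called 6 miRNAs, none of them a member. Of the 5 members 2 lay above 0 and 3 below, with a median log2 fold change of -0.02, against 208 above and 193 below and a median of 0.00466 over all tested miRNAs.

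The member farthest from 0 was miR-125a-5p, which averaged 15822 ± 1207 CPM in DMSO libraries and 13479 ± 563 CPM in entinostat libraries (SD, n = 2). Its fold was 0.852 (95% interval 0.746 to 0.972), a log2 fold change of -0.23 with SE 0.08 (edgeR unadjusted p = 0.0229, adjusted p = 0.595). It thus belonged to the 3.74% of tested miRNAs that lay lower at an unadjusted p under 0.05, and to the 20.0% with both entinostat libraries below both DMSO libraries. Of the 20 tested miRNAs with a mean of 10000 CPM or more it had the lowest log2 fold change, next to miR-615-3p (-0.22) and miR-99b-5p (-0.22), whose intervals overlapped its own. Leaving out DMSO replicate 1 brought its log2 fold change to -0.15 (adjusted p = 0.900), and leaving out DMSO replicate 2 brought it to -0.31 (adjusted p = 0.355). It was below 0 in all 17 alternatives run. Because its groups did not overlap, those that left out a library were no independent check of that sign.

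Mean levels of miR-125b-5p were 37810 ± 1938 CPM in DMSO libraries and 36016 ± 1332 CPM in entinostat libraries (SD, n = 2). The fold was 0.953 (95% interval 0.847 to 1.07) and the log2 fold change -0.07 (SE 0.07, edgeR adjusted p = 0.796). It ran from -0.13 without DMSO replicate 2 to -0.02 without DMSO replicate 1, with -0.11 and -0.03 when entinostat replicates 2 and 1 were left out in turn. With upper quartile factors, which raised the median of all tested miRNAs from 0.00466 to 0.12, its log2 fold change was 0.04, or -0.08 relative to that median. The upper ends of the fold intervals were thus 0.972 for miR-125a-5p and 1.07 for miR-125b-5p.

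For miR-125b-2-3p the levels were 2119 ± 45.8 CPM and 2159 ± 0.128 CPM (SD, n = 2), a fold of 1.02 (95% interval 0.890 to 1.17; edgeR adjusted p = 0.930). Its groups did not overlap, as in 20.7% of tested miRNAs with both entinostat libraries above both DMSO libraries. The other 3p arms had wide intervals. The fold was 0.988 (0.718 to 1.36) for miR-125b-1-3p and 1.03 (0.712 to 1.48) for miR-125a-3p, with edgeR adjusted p of 0.990 and 0.971. Their log2 fold changes of -0.02 and 0.04 changed sign when single libraries were left out, so no direction can be given. At 10000 CPM or more the median SE was 0.0772 log2 units, against 0.176 over all tested miRNAs. The change measured for miR-125a-5p was not called in that row itself (edgeR adjusted p = 0.595). One of its size was not detectable at the depth of miR-125b-1-3p and miR-125a-3p either.

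**Figure D2:**
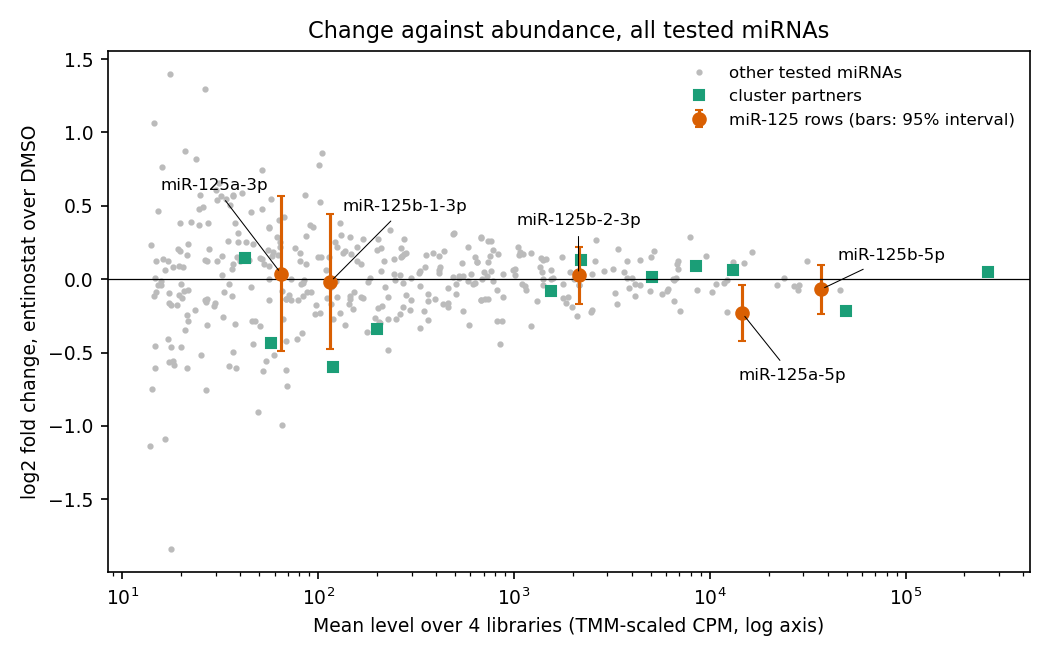
Log2 fold change of entinostat over DMSO against the mean TMM-scaled CPM over 4 libraries (log axis) for the 401 tested miRNAs (grey), the partners from the same genomic clusters (green squares) and the 5 miR-125 rows (orange, bars are 95% intervals). The miR-125a-5p interval alone among the 5 leaves out 0, at -0.42 to -0.04, and the intervals widen toward low abundance.

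Ratios of 2 miRNAs within a library do not depend on scaling, and 9 were computed, of which 3 were added after the counts were seen. With 2 libraries against 2 the two-sided exact permutation test cannot go below 0.333, so none could pass a threshold of 0.05. The guide of miR-125b outnumbered that of miR-125a 2.35- and 2.43-fold in the DMSO libraries and 2.53- and 2.83-fold in the entinostat libraries. The entinostat ratios lay above the DMSO ratios, with a difference of 0.16 on the log2 scale (exact permutation p = 0.333, adjusted over the 6 planned ratios 0.667). Leaving out entinostat replicate 1 made that difference 0.24, and leaving out replicate 2 of that group made it 0.0797. Put as shares, miR-125b-5p was 70.1% and 70.9% of both guides with DMSO and 71.7% and 73.9% with entinostat.

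Arm use was far more one-sided in miR-125a than in miR-125b. The 5p arm of miR-125a outnumbered its 3p arm 289- and 210-fold with DMSO and 222- and 195-fold with entinostat. Counting intervals were wide, 221 to 384 for the highest ratio and 148 to 262 for the lowest, and the groups overlapped (exact permutation p = 0.667). Among 92 hairpin names with both arms tested, this arm ratio was in place 5 by size, at a mean of 226-fold, where the median hairpin had 10.6-fold. For miR-125b, the 5p row outnumbered its 3p rows summed 16.4-fold on average, and 38 of those hairpin names had a larger ratio. Hairpins whose minor arm was too rare to test were outside this pool, so these places and the median hold for the pool only. An example was miR-30d, with a mean of 11910 CPM for its 5p arm and 5.70 CPM for its 3p arm in DMSO libraries. The 3p share of all miR-125b counts was 5.30% and 5.90% with DMSO and 6.06% and 5.82% with entinostat.

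The copy-specific 3p rows of miR-125b were dominated by the chromosome 21 row in every library. Of both 3p rows, miR-125b-2-3p held 95.3% (exact 95% interval 94.2 to 96.1%) and 94.2% (92.8 to 95.4%) in the DMSO libraries. In the entinostat libraries it held 95.4% (94.1 to 96.5%) and 94.6% (93.4 to 95.6%). The ratio of miR-125b-2-3p to miR-125b-1-3p was 20.1 and 16.3 with DMSO and 20.9 and 17.4 with entinostat, with overlapping groups (exact permutation p = 0.667, adjusted over the 9 ratios 0.857). The 5p row is common to both copies, so their shares of the guide were not measured.

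Each miR-125 hairpin lies in a cluster with a miR-99 or miR-100 hairpin and a let-7 hairpin, and these partners were followed as a list. On chromosome 19 the let-7e and miR-99b hairpins lie 389 and 572 bases from MIR125A. On chromosome 21 let-7c and miR-99a lie 50325 and 51067 bases from MIR125B2, and on chromosome 11 let-7a-2 and miR-100 lie 46677 and 52384 bases from MIR125B1. The list took rows by name, and so it includes let-7a-5p, which hairpins elsewhere also give, and let-7a-3p, which RefSeq places on other chromosomes only. Of its 12 rows 11 were tested and 0 called, 6 lay above 0 and 5 below, and the median log2 fold change was 0.01 against 0.00466 over all tested miRNAs.

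Log2 fold changes of the chromosome 19 cluster did not lie on 1 side of 0. Of its tested arms, only miR-125a-5p and let-7e-3p had intervals that left out 0. Beside miR-125a-5p at -0.23, the guide miR-99b-5p was at -0.22 (58330 and 48654 CPM in DMSO libraries, 43274 and 48800 CPM after entinostat), and its groups overlapped. The guide let-7e-5p was at 0.13, with 2041 and 2150 CPM against 2316 and 2263 CPM. Its minor arm let-7e-3p was at -0.60 (138.1 and 149.6 against 90.2 and 97.5 CPM; edgeR unadjusted p = 0.00803, adjusted p = 0.595). No partner other than let-7e-3p had an unadjusted p under 0.05. The ratio of miR-125a-5p to let-7e-5p was 8.17 and 6.96 with DMSO and 5.99 and 5.78 with entinostat, lower in both entinostat libraries (difference -0.36 on the log2 scale, exact permutation p = 0.333, adjusted over the 6 planned ratios 0.667). Against miR-99b-5p the ratio was 0.286 and 0.308 with DMSO and 0.321 and 0.268 with entinostat, and the entinostat libraries enclosed the DMSO libraries (exact permutation p = 1).

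The partners of miR-125b had their guides close to the DMSO level. On chromosome 21 miR-99a-5p, the most abundant miRNA of these libraries, was at 0.05 and let-7c-5p at 0.09 on the log2 scale, and on chromosome 11 miR-100-5p was at 0.06. The ratio of miR-125b-5p to miR-99a-5p was 0.154 and 0.138 with DMSO and 0.128 and 0.142 with entinostat, with overlapping groups. To miR-100-5p it was 2.96 and 2.90 with DMSO and 2.81 and 2.57 with entinostat, without overlap (difference -0.13 on the log2 scale, exact permutation p = 0.333, adjusted over the 6 planned ratios 0.667). It became -0.19 when entinostat replicate 1 was left out and -0.06 when replicate 2 of that group was.

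**Figure D3:**
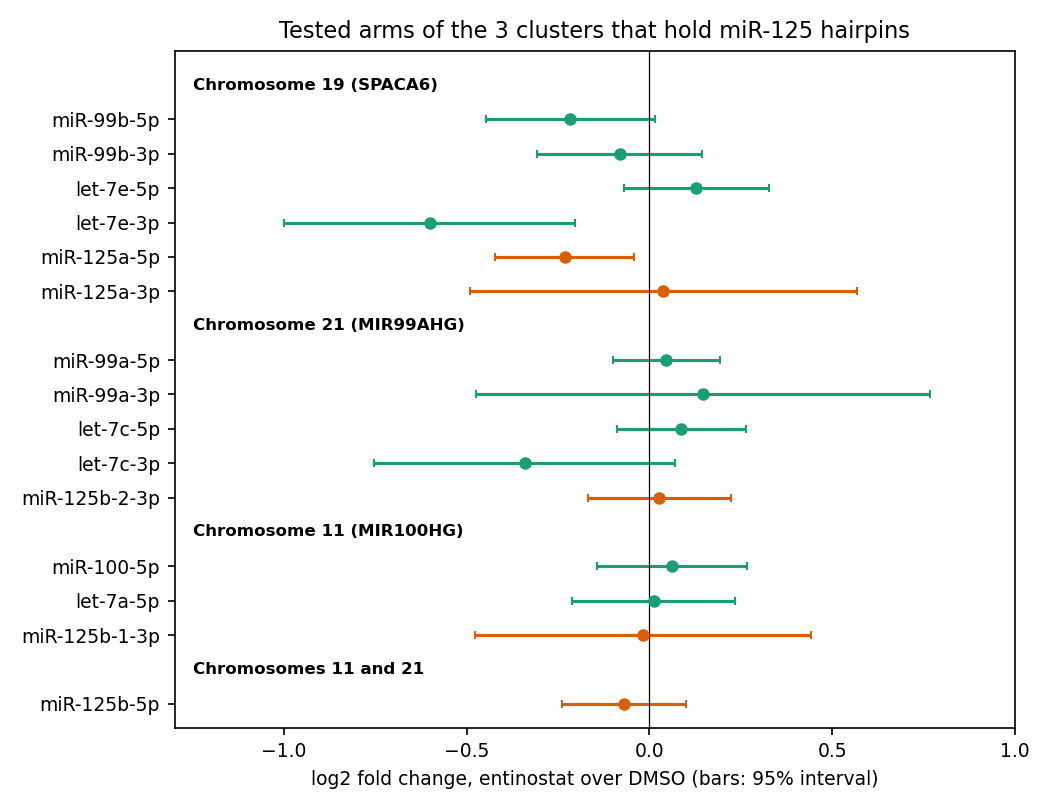
Log2 fold change of entinostat over DMSO with its 95% interval (bars) for the tested arms of the clusters on chromosomes 19, 21 and 11, with miR-125 rows in orange and partners in green, and for miR-125b-5p, which 2 of the clusters give. In the chromosome 19 cluster miR-125a-5p (-0.23) and let-7e-3p (-0.60) have intervals below 0, and let-7e-5p is at 0.13 with an interval that includes 0.

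**Figure D4:**
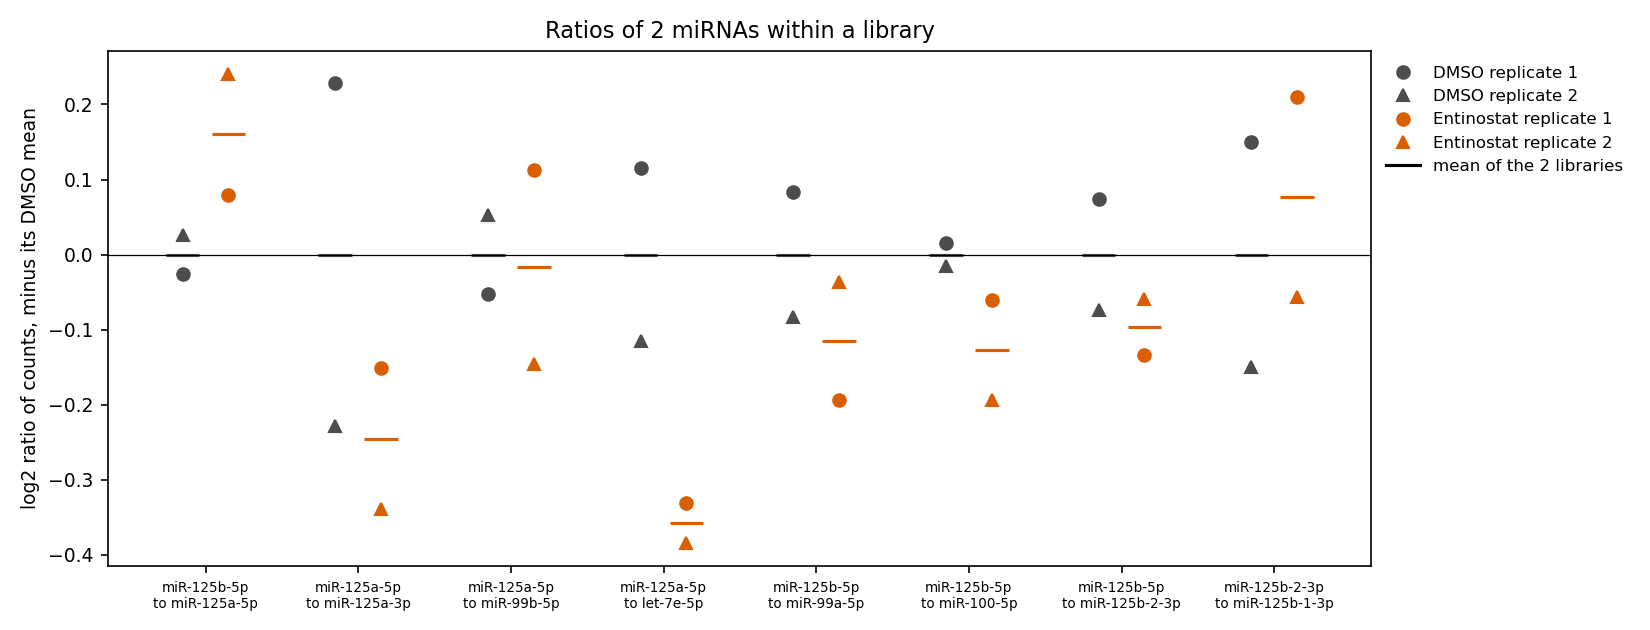
Log2 ratios of counts of 2 miRNAs within each library for the 8 ratios that hold a miR-125 row, minus the mean of the DMSO libraries, with DMSO in grey, entinostat in orange, circles for replicate 1, triangles for replicate 2 and bars at group means. The groups do not overlap for miR-125b-5p to miR-125a-5p (0.16 higher with entinostat), miR-125a-5p to let-7e-5p (0.36 lower) and miR-125b-5p to miR-100-5p (0.13 lower), and overlap for the other 5 ratios plotted. Each ratio without overlap has an exact permutation p of 0.333, and ratios that hold the same row are not independent. Of single tested miRNAs, 20.0% are lower and 20.7% higher with entinostat without overlap.

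Earlier work in breast cancer cells tied miR-125a, miR-125b and miR-205 to entinostat and to ERBB2 and ERBB3. The dose and time of that work were not compared with those used here. The set followed here consists of the 5 miR-125 rows and miR-205, with every listed arm taken by name. Of its 6 listed rows 5 were tested and 0 called. The remaining row, miR-205-5p, an epithelial miRNA, had 0 and 2 counts in the DMSO libraries and 9 and 4 after entinostat, too few for the test. Within that set the guides of miR-125a and miR-125b, the bulk of its counts, had log2 fold changes below 0, neither of which passed the test.

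Rows of like pattern were sought by the root mean square difference of centred log2 levels over the 4 libraries, among tested miRNAs of 100 CPM or more. Closest to miR-125b-5p were miR-106b-3p (0.0115), miR-323a-3p (0.0193) and miR-191-5p (0.0198), where the median of 236 compared rows was 0.127. Closest to miR-125a-5p were miR-1307-3p (0.0191), miR-433-3p (0.0314) and miR-7974 (0.0458), with a median of 0.171. Closest to miR-125b-2-3p were miR-151a-3p (0.0167), miR-654-5p (0.0214) and miR-379-3p (0.0214). The rare arms had looser matches, miR-532-3p (0.0522), miR-361-5p (0.0719) and miR-378d (0.0852) for miR-125b-1-3p and miR-331-3p (0.0368), miR-361-5p (0.0368) and miR-378d (0.0543) for miR-125a-3p. No cluster partner was among these closest rows. With 4 libraries the measure describes these libraries only.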

How the data were processed

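Small RNA libraries of H661 cells, 2 per treatment, were made by the submitters with New England Biolabs reagents from TRIzol RNA, per the labels' protocols. The submitters' processing notes name bcl2fastq 2.18. The aligner, counter, annotation and rule for reads shared by similar miRNAs were not given in the sources used here. Thus the split between miR-125a and miR-125b rests on the authors' counting. The authors deposited whole-number counts per mature name and CPM values, which equal count over column total times 1e+06.

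Groups and replicate numbers came from sample titles. Counts were tested with edgeR 4.0.16 (R 4.3.3; TMM scaling, filterByExpr with minimum count 10 and total 15, quasi-likelihood test, treatment as the only term), with p adjusted over all 401 tested rows; 425 rows were not tested. The common dispersion gave a biological coefficient of variation of 8.05%. Intervals use the standard error implied by the test. The fit was tested on simulated data. Alternatives used DESeq2 1.42.0, limma 3.58.1 (voom, and trend on log2 of the deposited CPM plus 1 or 0.5), other scalings and filters, a replicate block and each library left out. Shares have exact intervals (SciPy 1.17.1). Single values were compared by two-sided exact permutation (NumPy 2.4.6). Sequences are RefSeq's, positions GENCODE's.

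Named miRNAs were the members, their cluster partners, the ERBB2 and ERBB3 set, the neighbours in order of level, the 3 rows of most alike pattern among those of 100 CPM or more, and rows that share a seed. The miRNAs named among the most abundant were chosen after their values were seen. Members and lists were chosen with earlier results of these data known.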

Additional observations from a re-analysis of the deposited data

How the results depend on the processing

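Depth limits the 3p arms, with 34 to 97 counts per library for miR-125a-3p and miR-125b-1-3p, and 2 libraries per treatment limit every test. Over the 17 alternatives to the edgeR fit, no member was called. The log2 fold change of miR-125a-5p stayed below 0, from -0.31 to -0.12. The latter came with upper quartile factors, and was -0.24 relative to the median of all tested miRNAs. That of miR-125b-2-3p stayed above 0, from 0.00556 without DMSO replicate 1 to 0.14 with upper quartile factors. Relative to the median of the same fit, these values were -0.0105 and 0.0195, so its direction depended on the scaling. With upper quartile factors miR-125b-5p was at 0.0439 and miR-125b-1-3p at 0.0970, and limma-voom gave miR-125b-1-3p 0.000397. Leaving out each library in turn gave -0.13 to 0.16 for miR-125a-3p (below 0 without DMSO replicate 1 or entinostat replicate 2) and -0.20 to 0.13 for miR-125b-1-3p (above 0 without DMSO replicate 2 or entinostat replicate 1); the cause was not tested. Over all tested miRNAs the edgeR likelihood ratio test called 4, and leaving out each library gave 0 to 6 calls, the 6 without entinostat replicate 1; none of these was a member. These fits kept the 401 rows, a choice made after seeing the data; with the filter rerun on the remaining libraries the calls were 0 to 5, the 5 again without entinostat replicate 1. Where a treatment had 1 library left, it was assumed to vary like the other.

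The share of counts held by the miR-125 rows was lower with entinostat in each of its 5 alternatives, by 0.195 to 0.603 percentage points. Both entinostat shares lay below both DMSO shares, so leaving out a library could change the size but not the sign. The ratio of miR-125a-5p to miR-99b-5p turned from -0.02 to values between -0.15 and 0.11 (0.04 without DMSO replicate 2, 0.11 without entinostat replicate 2) when 1 library was left out, and that of miR-125b-2-3p to miR-125b-1-3p from 0.08 to between -0.0735 and 0.23 (-0.06 without entinostat replicate 1, the lowest without DMSO replicate 2). For miR-99a-5p to miR-100-5p the difference of -0.01 ran from -0.16 to 0.13, above 0 without DMSO replicate 2 or entinostat replicate 2.

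Replicate numbers in the titles are shared between treatments, but no label says that they mark a pair. Deviations of same-numbered libraries from their group means correlated at -0.36 over the 97 miRNAs of 1000 CPM or more and at -0.13 over the 237 of 100 CPM or more. With the replicate block 0 miRNAs were called, and miR-125a-5p was at -0.23 (edgeR adjusted p = 0.769). With the numbers crossed, an alternative chosen after seeing the data, 0 were called too.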

Other observations

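The ratio of the chromosome 21 to the chromosome 11 3p row of miR-125b was also set beside that of the guides of their cluster partners. This comparison was chosen after the values were seen. The partner guides miR-99a-5p and miR-100-5p stood at a ratio of 19.2 and 21.1 with DMSO and 22.0 and 18.0 with entinostat. The 3p rows of the miR-125b copies stood at 20.1 and 16.3 with DMSO and 20.9 and 17.4 with entinostat. Both ratios thus lay between 16.3 and 22.0 in all 4 libraries, while counting intervals of the 3p ratio ran from 12.9 to 27.9. The minor arms let-7c-3p and let-7a-2-3p of the same clusters were not in this comparison. They lay farther apart, at 112 to 204 and 0 to 3 counts per library, the latter too few to test. The groups of both ratios overlapped between treatments, with an exact permutation p of 1 for the partners. The pairs share libraries and depth, and unequal recovery of the sequences was not tested.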
